A study of Danio rerio with 6 samples.

Results

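RRM2, rrm1, tyms, dut and paics are 5 genes that supply the building blocks of DNA, out of 34289 genes in the count tables. They were picked by name from the deoxynucleotide pathway after earlier results of the same comparison were known, in which RRM2 passed the test over all genes (edgeR adjusted p = 0.0321). That value chose the group, so the levels of the 5 members in the 2 gates, and their rows of the fit over all genes with any p-value, are given as a description and support nothing. The members are identified by their Ensembl rows, because the symbol RRM2 belongs to 2 rows. RRM2 here is ENSDARG00000078069.

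The libraries are bulk RNA sequencing of osteoblasts, the cells that build bone, sorted from regenerating zebrafish scales. All fish carried osx:H2A-mCherry and osx:Venus-hGeminin, 2 reporters under osx (osterix, sp7) regulatory sequence. The sort was thus aimed at cells that switch on, or still hold the product of, an osx-driven transgene. Scales were collected 4 days after plucking, cells of 3 to 5 fish were pooled per sample, and mCherry-positive cells were split by Venus-hGeminin into a Geminin-negative and a Geminin-positive gate, with 3 libraries each. The fluorescent Geminin fragment is degraded in G1 and builds up in S, G2 and M phase. The titles call the Geminin-positive libraries high Erk while the series' text describes the reporter and Erk activity as running in opposite directions, so the gates are named by the reporter alone. The labels give no strain or age, and nothing says that the 3 samples of a gate came from separate experiments, so the spread below may be partly technical.

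DNA synthesis needs a balanced pool of deoxynucleotides. Ribonucleotide reductase makes them from ribonucleotides, and it is built from a large catalytic subunit, Rrm1, and a small radical-carrying subunit, Rrm2 or its relative Rrm2b. In mammals Rrm2 is limiting, is made for S phase and is destroyed in mitosis and G1 through the same ubiquitin ligase that removes geminin, whereas Rrm2b serves resting cells and DNA repair. Thymidylate synthase (Tyms) methylates dUMP to dTMP, the nucleotide that carries the DNA-specific base thymine. The enzyme dUTPase (Dut) both provides that dUMP and keeps uracil out of DNA. Paics catalyses steps of de novo purine synthesis, which feeds RNA, ATP and DNA alike.

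RRM2 was the member with the clearest separation between the gates. It lies on chromosome 19 (danRer10, 48003903 to 48010821, minus strand, 12 exon blocks). Its level was 14.3, 11.9 and 8.77 CPM in Geminin-negative replicates 1 to 3, from 279, 434 and 195 reads. In Geminin-positive replicates 1 to 3 it was 53.6, 69.0 and 70.5 CPM, from 843, 957 and 1124 reads. CPM (counts scaled to a common library size) was computed after TMM scaling, a correction for composition between libraries. The lowest Geminin-positive library lay well above the highest Geminin-negative library, and this held under all 3 scalings computed (TMM, library size alone and DESeq2 size factors). The means were 11.7 ± 2.76 and 64.3 ± 9.37 CPM (SD, n = 3 each), a 5.52-fold ratio of means and a log2 fold change of 2.46 with a standard error (SE) of 0.37. The widest 95% counting interval of a library was 64.7 to 73.5 CPM, narrower than the range of the 3 Geminin-positive libraries. Its coefficient of variation was 23.7% in the Geminin-negative libraries and 14.6% in the Geminin-positive gate, beside medians of 39.5% and 38.8% over the 5110 genes tested with a mean of 10 to 100 CPM. Of those genes, 22.0% and 10.6% had a smaller coefficient than RRM2 in the Geminin-negative and Geminin-positive gate. RRM2 was chosen for passing a test that favours a small spread, so its coefficients are only a description. Of the 5 members 1 passed the adjusted threshold of 0.05, which 0.607% of the 12855 genes tested passed. As RRM2 was chosen for that call, nothing is read from the count. The call was lost in 7 of 13 alternative analyses, among them leaving out any Geminin-negative library (adjusted p = 0.0652, 0.135 and 0.105 by edgeR without replicates 1, 2 and 3), or Geminin-positive replicate 2 or 3 (0.102 and 0.102). The log2 fold change stayed between 1.98 and 2.65 over all 13.

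**Figure D1:**
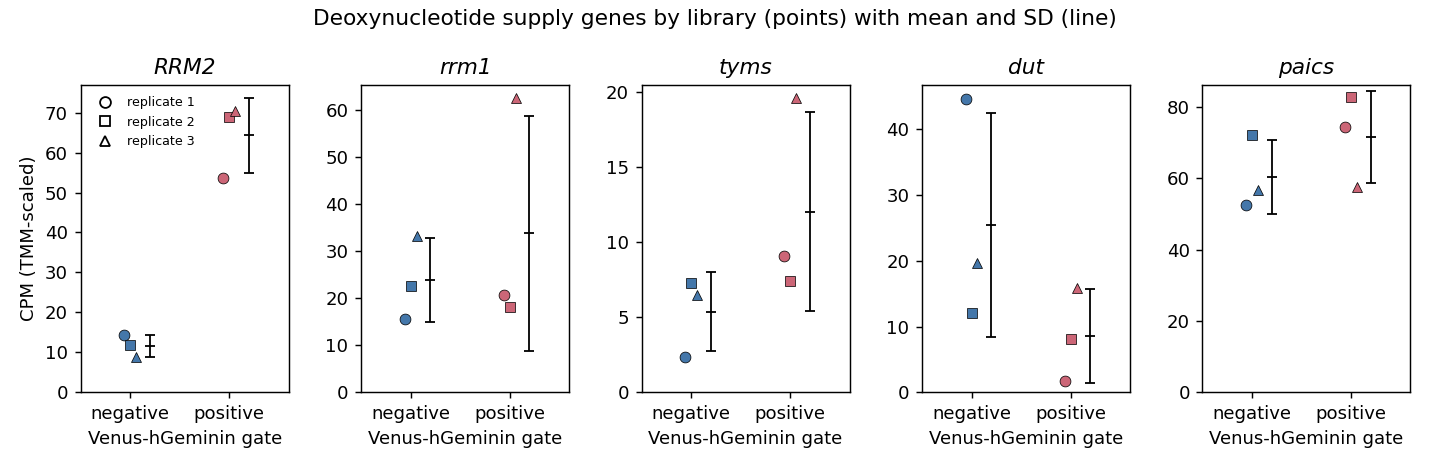
Level of each of the 5 members in CPM after TMM scaling (linear axes from 0, a separate scale per gene) in the Geminin-negative (blue) and Geminin-positive (red) libraries, with the mean and SD of the 3 libraries as black bars. The RRM2 points of the gates lie far apart, from 8.77 to 14.3 against 53.6 to 70.5 CPM, while rrm1, dut and paics overlap.

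The gene rrm1, for the partner subunit, lies on chromosome 21 (30735348 to 30750719, 19 exon blocks). Its level was 15.5, 22.6 and 33.3 CPM in the Geminin-negative libraries and 20.6, 18.2 and 62.6 CPM in the Geminin-positive libraries. The gates overlapped, and Geminin-positive replicate 3 was the only library above the Geminin-negative range. The log2 fold change was 0.51 (SE 0.58), and it turned to -0.29 without that library.

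The small subunit has 2 other rows. The second row named RRM2 (ENSDARG00000020711, chromosome 20, 29589590 to 29596547), which also has 12 exon blocks, was almost silent. It had 0, 5 and 5 reads in the Geminin-negative libraries and 0, 0 and 8 reads in the Geminin-positive libraries, too few to enter the test. How the authors' counting treated reads shared by the 2 copies is not given in the sources used here. The gene rrm2b, for the subunit used outside S phase in mammals (chromosome 19, 33329252 to 33341366), had 8.59, 31.9 and 24.7 CPM in the Geminin-negative libraries and 40.0, 33.5 and 20.9 CPM in the Geminin-positive libraries. The gates overlapped, and the log2 fold change of 0.53 (SE 0.55) did not pass (edgeR adjusted p = 0.9999). It was 0.16 when Geminin-negative replicate 1 was left out and 0.92 when replicate 2 of that gate was. Whether RRM2 and rrm2b differed in their change was not tested.

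Setting the subunits side by side needs a level per length, here RPKM, the TMM-scaled CPM divided by the exonic length in kilobases. RRM2 made up 52.2%, 19.7% and 18.8% of the summed RPKM of the 3 small-subunit rows in Geminin-negative replicates 1 to 3. In Geminin-positive replicates 1 to 3 it made up 46.8%, 57.5% and 68.5%. The shares overlapped, since Geminin-negative replicate 1, the library with the lowest rrm2b level, lay inside the Geminin-positive range. The ratio of RRM2 to rrm1 was 1.1, 0.634 and 0.317 in the Geminin-negative libraries and 3.11, 4.56 and 1.35 in the Geminin-positive libraries. These ratios do not depend on the scaling between libraries, and they did not overlap, although the gap between 1.1 and 1.35 was narrow. They hold the RRM2 levels that chose the group, so their separation is only a description. The ratio of rrm2b to rrm1 was 1.01, 2.58 and 1.36 against 3.54, 3.37 and 0.611, which overlapped.

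**Figure D2:**
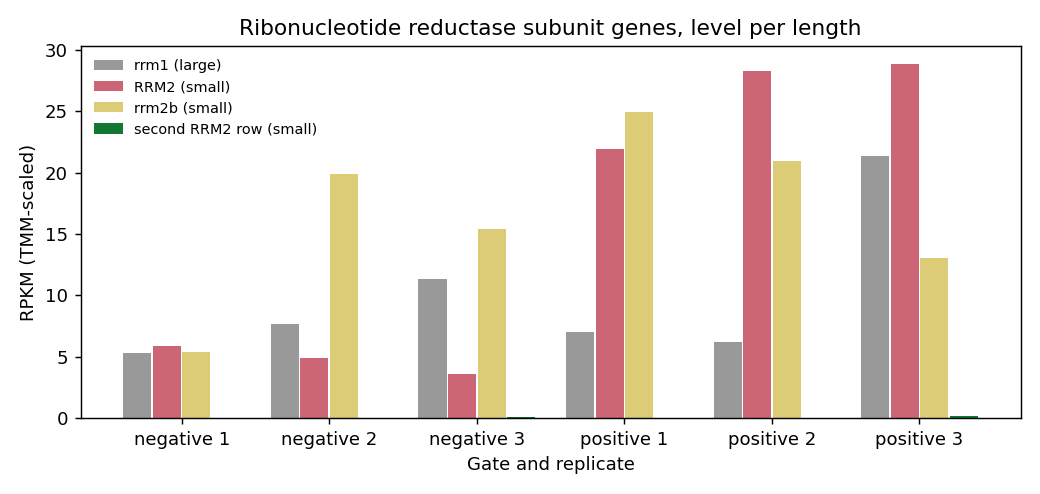
Level per length (RPKM from TMM-scaled CPM, linear axis from 0) of the large-subunit gene rrm1 and the 3 small-subunit rows in each library. The RRM2 bar is low in the Geminin-negative libraries (3.6 to 5.85 RPKM), is taller than rrm1 in each Geminin-positive library (22.0 to 28.9 RPKM), and the second RRM2 row is barely visible.

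The thymidylate synthase gene tyms leaned the same way as RRM2 with a far smaller gap. It lies on chromosome 7 (71293904 to 71300188, 7 exon blocks) and was the member with the fewest reads. Its level was 2.35, 7.31 and 6.48 CPM, from 46, 266 and 144 reads, in the Geminin-negative libraries. In the Geminin-positive libraries it was 9.08, 7.43 and 19.6 CPM, from 143, 103 and 313 reads. The gates just failed to touch, at 7.31 against 7.43 CPM, and the counting intervals of those 2 libraries (6.45 to 8.24 and 6.06 to 9.01 CPM) overlapped. With scaling by library size alone the gates overlapped. The log2 fold change was 1.16 (SE 0.93), and it was 0.62 when Geminin-positive replicate 3, the highest library, was left out. RRM2 and tyms were thus the 2 of 5 members whose gates did not overlap with the Geminin-positive libraries higher, which was so for 8.09% of all genes tested. Since the members were chosen on this comparison, the count is only a description.

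The dUTPase gene dut pointed the opposite way. Its row lies on chromosome 18 (5498886 to 5503232) and holds 2 exon blocks with 3049 exonic bases. Its level was 44.6, 12.0 and 19.7 CPM in the Geminin-negative libraries and 1.65, 8.08 and 15.9 CPM in the Geminin-positive libraries. Geminin-positive replicate 3 lay inside the Geminin-negative range, so the gates overlapped. Replicates differed widely, with coefficients of variation of 67.05% and 83.6%. The log2 fold change was -1.57 (SE 0.86), and it was -0.87 when Geminin-negative replicate 1 was left out and -2.38 when Geminin-positive replicate 3 was. The ratio of dut to tyms per length was 7.73, 0.670 and 1.24 in the Geminin-negative libraries and 0.0741, 0.443 and 0.331 in the Geminin-positive libraries. That ratio did not overlap between the gates, with 0.670 and 0.443 as the nearest values. It joins members picked with this comparison known, so the separation is only a description.

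The purine gene paics was the member with the smallest difference between the gates. It lies on chromosome 20 (25719024 to 25732166, 15 exon blocks) and had 52.4, 72.1 and 56.7 CPM in the Geminin-negative libraries and 74.3, 82.8 and 57.6 CPM in the Geminin-positive libraries. The gates overlapped, and the log2 fold change was 0.24 (SE 0.30), turning to -0.22 with scaling by library size alone, which moved the median gene by -0.46. Its span shares 5385 bases with that of ppat, the gene for the first committed enzyme of purine synthesis, on the opposite strand. These spans include introns, and the exonic bases shared by the 2 genes were not computed. Without a stated strand setting, reads in any shared exonic bases cannot be told apart. The ratio of paics to ppat per length ranged from 0.957 to 2.1 in the Geminin-negative libraries and from 1.37 to 2.56 in the Geminin-positive libraries. Of the 4 members other than RRM2, 0 passed with edgeR and 0 had an unadjusted p under 0.05, beside 0.607% and 9.4% of all genes tested. DESeq2 and limma-voom called 0 of the 4, beside 4.89% and 0.755% of all genes. At these shares nothing is read from a count over 4 genes.

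The order of the members by level per length differed between the gates in where RRM2 and dut stood. In the Geminin-negative gate the order was paics (14.7 ± 2.53 RPKM), dut (8.34 ± 5.59), rrm1 (8.13 ± 3.04), RRM2 (4.78 ± 1.13) and tyms (4.33 ± 2.13), and each neighbouring pair overlapped. In the Geminin-positive gate RRM2 came first (26.4 ± 3.84 RPKM), clear of paics (17.5 ± 3.13). Next came rrm1 (11.5 ± 8.53) and tyms (9.69 ± 5.32), which overlapped their neighbours above, and dut (2.80 ± 2.34) stood last and apart. All 5 members together took 0.0133% to 0.0159% of the counts of a Geminin-negative and 0.0135% to 0.0197% of those of a Geminin-positive library, so their sum overlapped while RRM2 did not.

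Around the members, 76 other genes of 7 lists of nucleotide supply enzymes were in the tables, and 55 of them had enough reads to be tested. None of the 55 passed with edgeR (0 higher and 0 lower, beside 0.124% and 0.482% of all genes tested). An unadjusted p under 0.05 was reached by 5 (3 higher and 2 lower), as by 9.4% of all genes tested, and limma-voom called 0 and DESeq2 called 1. They split into 29 with a positive and 26 with a negative log2 fold change. Their median was 0.14, beside -0.01 over all genes tested. The gates did not overlap in 7 that were higher and 4 that were lower in the Geminin-positive libraries. Over all genes tested those shares were 8.09% and 10.3%.

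The gene DESeq2 called was tk1, for thymidine kinase 1, which salvages thymidine into dTMP and in mammals is likewise removed at mitotic exit. It lies on chromosome 11 (44738710 to 44743663). Its reads were 20, 0 and 0 in the Geminin-negative libraries and 212, 189 and 342 in the Geminin-positive libraries, or 1.02, 0 and 0 against 13.5, 13.6 and 21.4 CPM. Nearly all of its reads were in the Geminin-positive libraries. The log2 fold change was 5.57 (SE 2.0, edgeR adjusted p = 0.3586), which did not pass, and the adjusted p ranged from 0.01158 to 0.7259 over the alternatives, passing with DESeq2 (0.02884) and with no filter on low counts (0.01158). The gene entered the test only through the Geminin-positive libraries, where it was high. Its log2 fold change is set against a group near 0 and ranged from 4.89 to 11.4 over the alternatives, the highest when Geminin-negative replicate 1 was left out, so its size is not ranked against that of RRM2.

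In the thymidylate and folate list, 8 genes other than tyms and dut were tested, 5 with a positive and 3 with a negative log2 fold change. The mitochondrial folate enzyme gene mthfd2 had 90.0, 83.2 and 69.7 CPM against 115, 153 and 116 CPM. Its gates did not overlap, but the log2 fold change of 0.66 (SE 0.26) did not pass (edgeR adjusted p = 0.4359). The serine hydroxymethyltransferase gene shmt2, which loads folate with the carbon used by thymidylate synthesis, had 35.8 ± 21.9 and 76.8 ± 61.8 CPM and overlapped. So did dtymk, for the kinase that takes dTMP to dTDP, with 6.39, 6.81 and 10.98 against 10.04, 18.3 and 22.1 CPM. The dihydrofolate reductase gene dhfr, whose enzyme regenerates the folate that thymidylate synthase oxidises, had 11.4 ± 12.5 and 7.27 ± 6.09 CPM, and is named outside the rule after its values were seen. The dCMP deaminase gene dctd had 0 reads in the Geminin-negative libraries and 0, 31 and 82 in the Geminin-positive libraries, too few for the test, and is likewise named outside the rule.

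**Figure D3:**
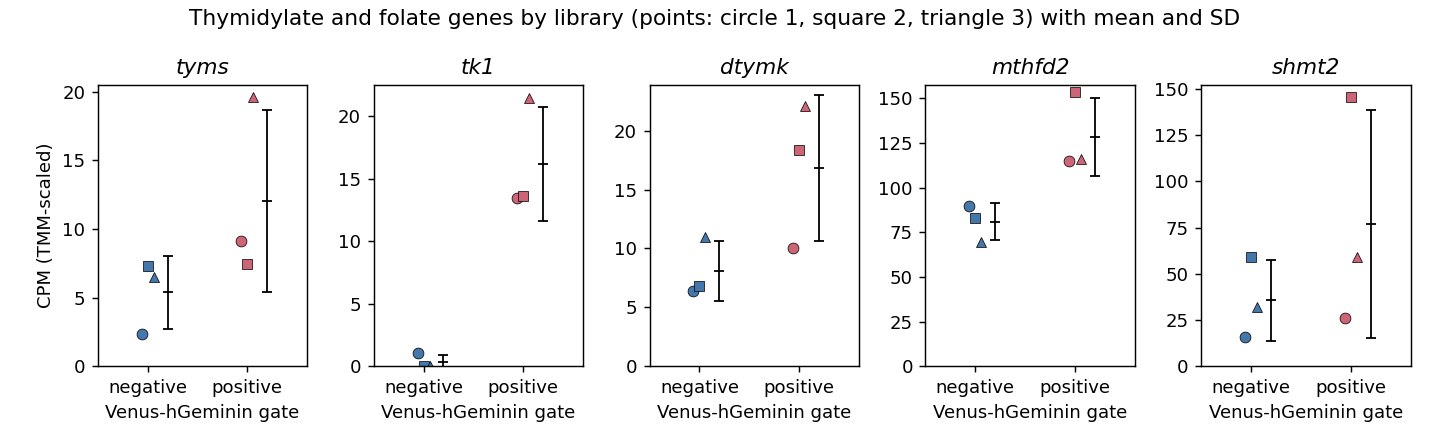
Level in CPM after TMM scaling (linear axes from 0, a separate scale per gene) of tyms and 4 other genes of thymidylate and folate supply in each library, with mean and SD. The tk1 points lie at 0 to 1.02 in the Geminin-negative libraries and 13.5 to 21.4 CPM in the Geminin-positive libraries, while shmt2 and dtymk overlap.

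Of 9 genes of de novo purine synthesis other than paics, 6 were positive and 3 negative, and in 0 of them did the gates separate. Of all genes tested, 8.09% separated with the Geminin-positive libraries higher and 10.3% with them lower. The GMP synthetase gene gmps had 93.05 ± 13.4 and 114 ± 12.8 CPM, and adsl, for adenylosuccinate lyase, 51.7 ± 10.3 and 61.9 ± 19.6 CPM. Of 5 pyrimidine genes, 2 were positive and 3 negative. The UMP/CMP kinase gene cmpk had 85.8, 91.5 and 95.5 CPM against 128, 136 and 154 CPM, without overlap, at a log2 fold change of 0.61 with an SE of 0.24 (edgeR adjusted p = 0.4198). The gene cad, for the enzyme that starts pyrimidine synthesis, had 14.5, 32.5 and 42.5 CPM against 20.9, 0 and 14.6 CPM, with no read in Geminin-positive replicate 2. The pyrimidine gene dhodh had no read in that library either.

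Among the electron donors that re-reduce the reductase after each cycle, 4 of 7 genes were positive and 3 negative. The thioredoxin gene txnb had 71.9, 48.6 and 57.4 CPM against 17.98, 27.4 and 38.7 CPM. All 3 Geminin-positive libraries were lower, with a log2 fold change of -1.08 (SE 0.39) that did not pass (edgeR adjusted p = 0.359). The glutaredoxin gene glrx had 111 ± 28.5 and 166 ± 56.8 CPM and overlapped. Of the 10 nucleotide kinase genes tested, 4 were positive and 6 negative. The adenylate kinase gene ak1 had 31.5 ± 9.02 and 12.9 ± 4.41 CPM, a difference that did not pass (edgeR adjusted p = 0.3777).

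**Figure D4:**
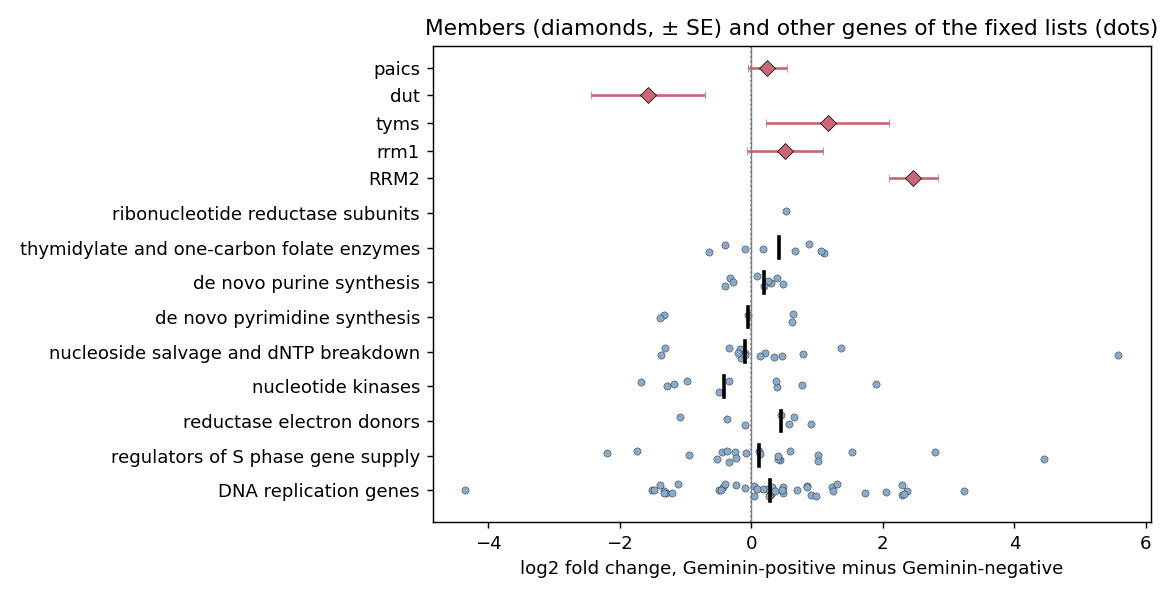
Log2 fold change (Geminin-positive minus Geminin-negative) of the 5 members (red diamonds, bars are ± SE) and of the other tested genes of the fixed lists drawn (blue dots, vertical bar at the list's median, dotted line at the median of all genes tested, -0.01). The list of G2 phase and mitosis genes, of which 25 of 32 tested lay above RRM2, is not drawn. RRM2 lies at 2.46, and as it was chosen for its call in this comparison, its place among the dots is only a description. The tk1 dot lies at 5.57 and is not ranked against RRM2.

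Replication genes, many of which share S phase timing with RRM2 in other systems, split both ways. Of 43 tested, 28 were positive and 15 negative, with a median of 0.28, and 0 passed with edgeR (4 at an unadjusted p under 0.05) or limma-voom, while DESeq2 called 1, ccne2. Beside these and the lists that follow, the shares called over all genes tested were 0.607% by edgeR, 0.755% by limma-voom and 4.89% by DESeq2. An unadjusted p under 0.05 by edgeR was reached by 9.4%. The helicase gene mcm3 had 16.3, 36.3 and 38.5 CPM against 7.94, 12.0 and 12.0 CPM, lower in each Geminin-positive library. The cyclin E gene ccne2, which acts at S phase entry, had 4.09, 2.61 and 2.97 CPM against 19.2, 12.8 and 15.2 CPM, and the sliding clamp gene pcna 50.5 ± 4.99 and 94.4 ± 32.5 CPM. Of the 43, uhrf1 had the largest fitted log2 fold change, at 3.24 (SE 1.79), and is named outside the rule. Its reads were 10, 1 and 42 in the Geminin-negative libraries and 163, 88 and 100 in the Geminin-positive libraries. It passed the filter on low counts only through the Geminin-positive libraries, so its size is not ranked against that of RRM2. In the list of G2 phase and mitosis genes all 32 tested were positive, with a median of 3.20, and 25 lay above RRM2. Over all 12855 genes tested, 6375 were positive. With edgeR 1 of the 32 passed, gmnn, while limma-voom called 2 and DESeq2 11. Several were near 0 in the Geminin-negative libraries and entered the test only through the other gate, among them ncapd2, ncaph and pttg1 with 0 reads there. The median and the count above RRM2 thus depend on fitted values with no firm size. For genes that entered in this way a positive sign was fixed by the filter, so the count of 32 positive is only a description. Of the regulators, tfdp1b, for a partner of E2F factors, had 0.818, 0 and 0.990 CPM against 7.37, 13.8 and 18.6 CPM (edgeR adjusted p = 0.4071). With 16, 0 and 22 reads in the Geminin-negative libraries, tfdp1b too passed the filter on low counts only through the Geminin-positive libraries. The kinase gene wee1, whose product restrains Cdk1, had 25.3, 21.1 and 23.2 CPM against 6.16, 13.6 and 1.13 CPM. It was lower in each Geminin-positive library, at a log2 fold change of -1.73 with an SE of 0.84 that did not pass (edgeR adjusted p = 0.6274). The repressor gene e2f6 had 8.18 ± 0.584 and 16.6 ± 3.91 CPM without overlap and did not pass (edgeR adjusted p = 0.8234), and nfyc, for a subunit of the CCAAT-binding factor NF-Y, overlapped. The gene ccnf, whose product marks Rrm2 for destruction in human cells, had 3.55 ± 5.49 and 2.81 ± 3.69 CPM and is named outside the rule. Of 21 regulators tested 11 were positive and 0 passed with edgeR (1 at an unadjusted p under 0.05) or limma-voom, while DESeq2 called 1, tfdp1b.

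The pattern of RRM2 over the 6 libraries was compared with those of 5779 named genes whose mean level reached 10 CPM, by the root mean square difference of log2 CPM after each gene's mean was subtracted. The 8 nearest, from 0.31 to 0.37 log2 units, were SSH1, col1a1b, MYO18A, gmnn, fjx1, golga2, rhoub and col1a1a. The median over all compared genes was 1.39. The list holds the geminin gene gmnn itself (0.34) and both type I collagen alpha 1 genes, and gmnn was its only member from the list of G2 and mitosis genes. The ratio of RRM2 to gmnn per length was 0.0268, 0.0261 and 0.0175 in the Geminin-negative libraries and 0.0283, 0.0338 and 0.0371 in the Geminin-positive libraries. The other members were not near RRM2, the closest being tyms at 1.01. The closest pair of members was rrm1 and tyms, at 0.54, both highest in Geminin-positive replicate 3. The nearest named genes were nkapd1 for rrm1 (0.25), fam234b for tyms (0.19), cebpd for dut (0.28) and gabarapa for paics (0.06). These distances were sought among many genes over 6 libraries and carry no test.

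**Figure D5:**
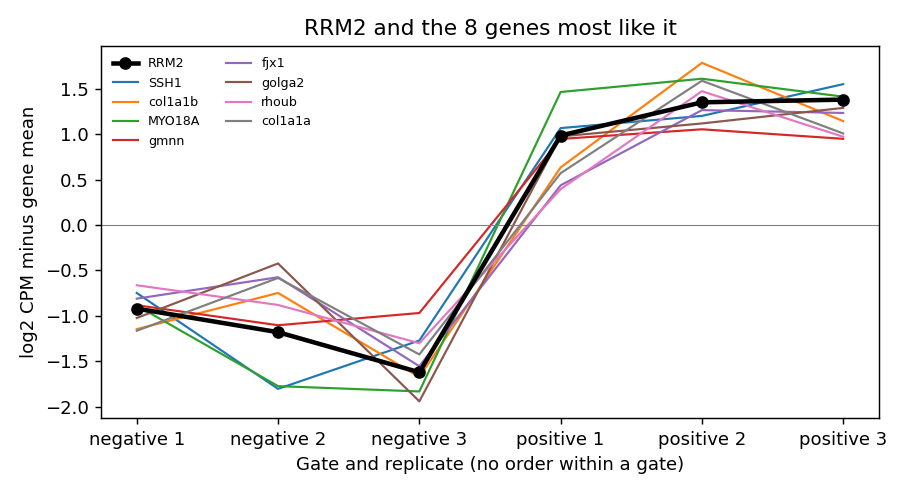
Log2 CPM minus the gene's mean over the 6 libraries for RRM2 (black) and the 8 genes most like it (coloured lines join the libraries only to make each gene traceable). All 9 lines lie below 0 in the Geminin-negative libraries and above 0 in the Geminin-positive libraries.

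Total counts ranged from 15854710 to 34472612 per library. Genes with any read ranged from 11977 to 17875, and the deepest library, Geminin-negative replicate 2, had 13829. More reads thus did not go with more genes detected. Whether a gene without reads in a single library was unexpressed or missed there was not tested. The geminin gene gmnn, looked up as a check of the sort, had 365 to 426 CPM in the Geminin-negative libraries and 1516 to 1633 CPM in the Geminin-positive libraries. It was lower but far from absent in the Geminin-negative gate. None of 14 osteoblast markers was at 0 in all libraries, and their summed level was 107489 to 210473 CPM in the Geminin-negative libraries and 295530 to 603296 CPM in the Geminin-positive libraries. Of the 14, 8 had the higher mean in the Geminin-positive libraries and 6 the lower. Without the type I collagen genes the other 11 summed to 42860 to 112946 against 80719 to 127636 CPM, which overlapped. Of the 13 osteoblast markers tested, 7 were higher and 0 lower without overlap, and 2 passed with edgeR, col1a1a and col1a1b. All 16 leukocyte markers in the tables had a lower mean in the Geminin-positive libraries, where coro1a and fcer1g were at 0, and their sum was 2619 to 3879 against 77.9 to 231 CPM. Of the 14 that were tested, all 14 were lower without overlap and 6 passed with edgeR. All 8 osteoclast markers had a lower mean too, with acp5b, calcr and ocstamp at 0 there, and summed to 833 to 1101 against 319.6 to 467 CPM. Of the 6 tested, 4 were lower without overlap and 2 passed. Over all genes tested, 8.09% were higher and 10.3% lower without overlap, and edgeR called 0.124% higher and 0.482% lower. Dermal fibroblast markers summed to 1462 to 1893 against 2863 to 6933 CPM, with 3 of 6 means higher and 3 lower. Endothelium markers summed to 5.37 to 9.27 against 0 to 1.66 CPM, a smaller sum in the Geminin-positive gate. Among these 4 markers 1 mean was lower there, 1 was higher, and 2 markers were at 0 throughout. Nerve and Schwann cell markers summed to 22.3 to 34.96 against 4.47 to 14.98 CPM, again smaller in that gate. Among these 7 markers 2 means were lower there, 1 was higher, and 4 markers were at 0 throughout. Only 1 gene of each of these lists was tested. Sums of keratinocyte (831 to 4202 against 754 to 947 CPM), erythrocyte (4.04 to 91.1 against 19.1 to 34.6 CPM) and pigment cell markers (0 to 9.47 against 0 to 6.42 CPM) overlapped. The sums that do not overlap differ between the gates alongside each comparison above, and their part in the levels of dut, with the lower mean in the Geminin-positive libraries, and of the other members was not tested. The gene samhd1, for a dNTP-degrading enzyme abundant in mammalian myeloid cells and named outside the rule, had 11, 0 and 165 reads in the Geminin-negative libraries and 5, 0 and 0 reads in the Geminin-positive libraries. In bulk RNA, fewer cells of a type and less RNA per cell cannot be told apart.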

How the data were processed

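The authors deposited raw read counts by Ensembl gene, 1 table for each library. The submitters' processing notes name the build danRer10, featureCounts 1.6.1, TopHat2 2.1.1 and Trim Galore 0.4.1. How strand and multi-mapping reads were handled, and which annotation release was used, is not given in the sources used here. The deposited tables also give exonic length, another measure, used here for RPKM. Symbols were looked up by Ensembl identifier (26790 of 34289 genes matched), respelled from RefSeq assembly GRCz12tu where unique. Of 292 list symbols 264 matched.

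Counts were tested with edgeR 4.0.16 in R 4.3.3 (filterByExpr, TMM, robust quasi-likelihood test, Benjamini-Hochberg over all 12855 genes tested, threshold 0.05). SE is the absolute log2 fold change over the root of F. Intervals are exact 95% Poisson intervals and cover counting error only. The script was checked on simulated counts with 200 changed genes of at least 10 CPM. It recovered 22% of 4-fold, 64% of 8-fold, 80% of 16-fold and 92% of 32-fold changes, with 12 false calls. A gene that did not pass may therefore still differ between the gates. The closest pair of libraries differed by a chi-square of 100.2 per degree of freedom, so none was a duplicate.

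Members and lists were chosen with earlier results of these data known. Named are the members, gmnn, sp7, up to 4 genes per list with the smallest p, called list genes, and the 8 or 3 genes most like a member (prior count 2). Exceptions are marked. The check gene sp7 had 112 ± 34.8 and 200.3 ± 63.3 CPM. Alternatives were DESeq2 1.42.0, limma-voom 3.58.1, other scalings and filters, a replicate block and leaving out each library. No sequences were used here. A result that the naming rule would include is not reported here.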

Additional observations from a re-analysis of the deposited data

How the results depend on the processing

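RRM2 kept its direction in all 13 alternatives and its call in 6. Its log2 fold change was 1.98 with library size alone (edgeR adjusted p = 0.0515) and 2.48 with the replicate block (adjusted p = 0.0505), and 2.25 to 2.65 when a library was left out. The count of genes called, 78, was 185 with library size alone, 557 with no filter, 134 with the replicate block, 628 with DESeq2 and 22 to 96 with a library left out. Of the calls, 16 were higher and 62 lower; library size alone gave 12 and 173, the block 47 and 87, limma-voom 39 and 58, and DESeq2 194 and 434. Of the nucleotide supply genes other than the members, 0 were called, and 1 (tk1) with no filter and with DESeq2. Reversals were -0.29 for rrm1 without Geminin-positive replicate 3 (range with a library left out -0.29 to 0.81) and -0.22 for paics with library size alone; the cause was not tested. None of the 4 other members was called in any alternative. The pairing check gave correlations of 0.18, 0.06 and 0.04 between same-numbered libraries. Each Geminin-positive library correlated best with the Geminin-negative library of its own number. Geminin-negative replicate 3, however, correlated best with Geminin-positive replicate 2 (0.05). Such low values do not settle whether the numbers are pairs. The labels state no pairs, so the main fit took none. The 8 genes most like RRM2 were the same with library size alone. Scaling moves all genes of a library nearly alike and so cancels from these distances, so the agreement is no check.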
